A study of Homo sapiens with 6 samples.

Results

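The E2F transcription factor family, the genes E2F1 to E2F8, was examined in E2F1 and H3K27me3 ChIP-seq peak lists from the human breast cancer line MDA-MB-231, which is triple-negative. The 8 members were chosen by name out of 19970 protein-coding genes on the 23 chromosomes that carried peaks. A member was counted as having an E2F1 promoter peak when the summit of a peak lay within 1 kb of any of its annotated transcription start sites (TSSs), and as having an H3K27me3 promoter peak when at least 1 bp of a broad peak lay in that window. Peaks over the gene body, from the first to the last annotated base, were described as well.

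E2F proteins bind promoters of genes needed for DNA replication and division, most of them as partners of a DP protein. Retinoblastoma-family proteins hold them in check until cyclin-dependent kinases release them. E2F1, E2F2 and E2F3 are classed as activators, E2F4 and E2F5 as repressors that work with the pocket proteins p107 and p130, E2F6 as a repressor that binds no pocket protein and joins Polycomb-type complexes, and E2F7 and E2F8 as atypical repressors that bind DNA without a DP partner. Several E2F genes are themselves known E2F targets, so the promoters of the family form a feedback circuit. H3K27me3 is the histone mark laid down by EZH2, the catalytic subunit of Polycomb repressive complex 2.

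The study asked how E2F1 and EZH2 act together in these cells. E2F1 ChIP-seq covered 3 conditions: no treatment, DMSO (the solvent) over 72 h, and 1 µM GSK126, an inhibitor of EZH2 catalytic activity, over 72 h. H3K27me3 ChIP-seq was done in cells carrying a control shRNA and in cells carrying an shRNA against E2F1 (shE2F1), each transduced with lentivirus for 24 h and selected with 2 µg/ml puromycin for 72 h. An input library of untreated cells completed the 6 samples and was not analysed here. All cells came from this 1 line, and the knockdown cells were selected populations rather than single clones.

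Each condition had 1 library, so no difference below has a replicate check and no p-value between conditions was computed. Intervals are exact 95% binomial or Poisson intervals and cover counting error only. The lists held 1056 E2F1 peaks in untreated, 15703 in DMSO and 14276 in GSK126 cells, and 123957 H3K27me3 peaks in control and 135683 in shE2F1 cells. Fold enrichment is the authors' fragment pileup over local background, at the summit for E2F1 and averaged over the peak for H3K27me3. For E2F1 the caller adds 1 fragment to both terms. This lowers the fold most where the background is low, so folds of lists with unlike backgrounds are not on the same scale. The number of fragments at each E2F1 summit was recovered from the deposited fold and p-value, and so was the local background, whose lowest value was 0.668 fragments in untreated, 1.82 in DMSO and 1.70 in GSK126 cells. That lowest value was taken as a stand-in for sequencing depth, and was about 2.72 times higher in DMSO than in untreated cells. Read numbers were not examined, so depth itself is not known. RNA was not measured in these lists, so neither the loss of E2F1 in the knockdown nor the identity of the cells could be checked against expression. The study itself reports a marked loss of E2F1 expression after its knockdown.

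E2F1 occupied the promoters of most of its own family. In untreated cells 4 of 8 members had a promoter peak, E2F1, E2F3, E2F7 and E2F8, beside 5.85% of all protein-coding genes. In DMSO cells 7 of 8 members had one, beside 33.5% of genes, and in GSK126 cells the same 7 members did, beside 51.5%. E2F5 was the single member without an E2F1 promoter peak in any list. The 4 members of the untreated list carried a promoter peak in all 3 lists, as did 5.71% of genes, and E2F2, E2F4 and E2F6 had one in DMSO and GSK126 cells and none in untreated cells, as did 5399 of 19970 genes (27%).

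**Figure D1:**
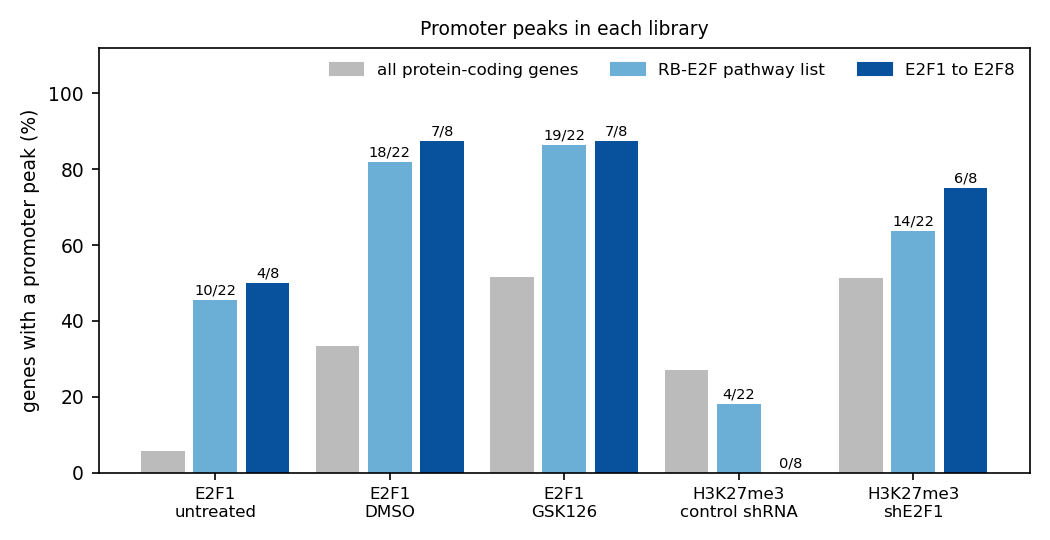
Percentage of genes with a promoter peak in each of the 5 libraries, for all protein-coding genes (grey), the 22 genes of the RB-E2F pathway list (light blue) and E2F1 to E2F8 (dark blue), with counts above the bars. The family lies above all genes in the 3 E2F1 libraries, at 0 of 8 in the control shRNA H3K27me3 library and at 6 of 8 in the shE2F1 library.

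Among the activators, E2F3 had the strongest E2F1 peak in untreated cells. E2F3 drives entry into S phase and lies at chr6:20401879-20493714 on the plus strand (GRCh38). Fold enrichment at its main promoter was 24.1 in untreated, 31.3 in DMSO and 52.3 in GSK126 cells, from 70, 205 and 324 fragments. It ranked 20th among the 1168 genes with a promoter peak in untreated cells, 66th of 6698 in DMSO and 78th of 10279 in GSK126 cells. The summits lay 28, 27 and 37 bp upstream of the main TSS. The peak was 590 bp wide in untreated, 1932 bp in DMSO and 3485 bp in GSK126 cells, and the last was wider than 99.9% of the strongest promoter peaks of that list. It then also covered the internal start of the shorter E2F3 transcript. A long noncoding RNA gene, ENSG00000289981, starts 376 bp upstream on the other strand, within the same promoter.

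At E2F1 itself, chr20:33675477-33686385 on the minus strand, the E2F1 protein was enriched at the only annotated TSS in all 3 lists. Fold enrichment was 13.3 in untreated, 20.5 in DMSO and 31.7 in GSK126 cells, from 38, 176 and 274 fragments. The summits lay 20 bp upstream, 3 bp into the untranslated part of exon 1, and 23 bp upstream. Beyond the 3′ end of the gene, 701 bp away in DMSO cells, a smaller peak with a fold of 3.67 in DMSO and 6.87 in GSK126 cells lay within 1 kb of a TSS of the neighbouring gene NECAB3.

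E2F2, the third activator, lies at chr1:23506438-23531233 on the minus strand. It had no peak in untreated cells, and folds of 10.9 in DMSO and 19.5 in GSK126 cells from 37 and 64 fragments, with summits 18 and 14 bp into the untranslated part of exon 1. The nearest untreated peak was 448832 bp away.

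The atypical repressors E2F7 and E2F8 also carried peaks in all 3 lists. At E2F8, chr11:19224063-19241620 on the minus strand, fold enrichment was 12.2 in untreated, 31.7 in DMSO and 64.0 in GSK126 cells, from 34, 184 and 335 fragments. E2F8 ranked 234th of 1168 genes in untreated, 60th of 6698 in DMSO and 36th of 10279 in GSK126 cells, in lists that differ in length and lowest background. The summits lay 207 to 225 bp upstream of the main TSS. A second untreated peak, with a fold of 4.88 from 10 fragments, lay 794 bp upstream of the main TSS and 119 bp upstream of the nearest alternative start, and single wider peaks of 1308 bp in DMSO and 2395 bp in GSK126 cells covered both positions. At E2F7, chr12:77021248-77065569 on the minus strand, fold enrichment was 12.6, 21.9 and 41.6 in the same order, from 23, 98 and 172 fragments. The E2F7 summits lay 125, 163 and 130 bp upstream of the main TSS.

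Taking the strongest promoter peak of each gene, the repressors E2F4 and E2F6 had the lowest folds among the members in DMSO and GSK126 cells. At E2F4, chr16:67192155-67198918 on the plus strand, fold enrichment was 5.34 in DMSO and 6.15 in GSK126 cells from 20 and 24 fragments. The summit lay in intron 1, 287 bp downstream of the main TSS, in DMSO cells and in the coding part of exon 1, 74 bp downstream, in GSK126 cells. These peaks were narrow, 367 and 325 bp, the second narrower than all but 5.12% of the strongest promoter peaks in GSK126 cells. At E2F6, chr2:11444375-11466177 on the minus strand, fold enrichment was 5.05 in DMSO and 10.5 in GSK126 cells from 30 and 60 fragments, with summits 519 and 515 bp into the gene, in intron 1. Neither gene had a peak in untreated cells.

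**Figure D2:**
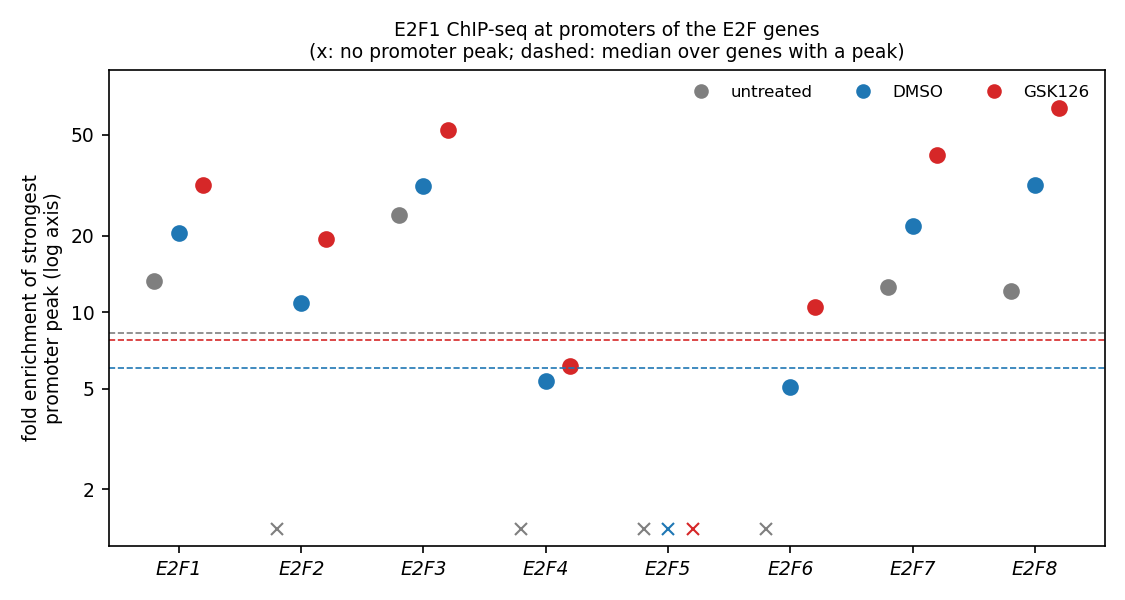
Fold enrichment (log axis) of the strongest E2F1 promoter peak of each E2F gene in untreated (grey), DMSO (blue) and GSK126 (red) cells, 1 library each. Crosses mark the absence of a promoter peak and dashed lines the median over all genes with one. E2F1, E2F3, E2F7 and E2F8 lie above the medians in all 3 lists, E2F2 in the lists in which it has a peak, E2F4 lies below both, and E2F6 lies below the DMSO and above the GSK126 median.

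The median strongest promoter fold over all genes with a promoter peak was 8.28 in untreated, 6.03 in DMSO and 7.78 in GSK126 cells. Over the members it was 12.9 (n = 4), 20.5 (n = 7) and 31.7 (n = 7). The order of the members depended on the measure. By fold enrichment E2F7 lay above E2F1 in DMSO (21.9 and 20.5) and GSK126 cells (41.6 and 31.7), whereas by fragments at the summit E2F1 lay above E2F7, with a local background of 7.63 fragments at E2F1 and 3.52 at E2F7 in DMSO cells. E2F8 and E2F7 in untreated cells, and E2F3 and E2F8 as well as E2F6 and E2F4 in DMSO cells, also changed places between the measures. Counting intervals were available for fragments alone. By fragments in untreated cells, E2F3 exceeded E2F1 1.84-fold (counting interval 1.22 to 2.81), whereas E2F1 and E2F8 and then E2F8 and E2F7 had intervals of their ratio that included 1. In DMSO cells E2F3, E2F8 and E2F1 could not be separated as neighbours, E2F1 exceeded E2F7 1.80-fold (1.39 to 2.32), E2F7 exceeded E2F2 2.65-fold (1.80 to 3.98), and E2F2, E2F6 and E2F4 again could not be separated as neighbours. In GSK126 cells E2F8 and E2F3 were not separated, nor were E2F2 and E2F6, and the intervals of the other neighbours lay above 1, in the fragment order E2F8, E2F3, E2F1, E2F7, E2F2, E2F6, E2F4. The upper 4 genes were those with a peak in untreated cells.

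The 3 members without an untreated peak were set against the depth of that library, as judged by its lowest background. At the DMSO enrichment, the untreated library would have held 13.6 fragments at the E2F2 summit, 11.0 at E2F6 and 7.34 at E2F4, while its weakest called peak had 7 fragments and its median peak 19. The value at E2F4 was thus close to that of the weakest called peak, and those at E2F2 and E2F6 lay between the weakest and the median peak. At the GSK126 enrichment the untreated library would have held 25.1 fragments at E2F2 and 23.6 at E2F6, both above the median peak, and 9.43 at E2F4.

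The sequence upstream of the start sites was examined for the E2F motif (TTCCCGC or TTCGCGC or TTGCCGC or TTGGCGC), the CCAAT box (CCAAT), the cell-cycle homology region (TTTGAA) and the GC box (GGGCGG), on both strands. RefSeq promoter sequences (GRCh38.p14) matched 6 of the 8 members. The 250 bases before the TSS are shown for the 3 matched members with peaks in all 3 lists, for E2F2, and for E2F4 as the member with the weakest signal in GSK126 cells. Sequences read 5′ to 3′ on the strand of the gene, and capitals mark E2F motif matches. They lie at chr20:33686386-33686635 (minus strand) for E2F1, chr6:20401629-20401878 (plus) for E2F3, chr12:77065570-77065819 (minus) for E2F7, chr1:23531234-23531483 (minus) for E2F2 and chr16:67191905-67192154 (plus) for E2F4.
E2F1: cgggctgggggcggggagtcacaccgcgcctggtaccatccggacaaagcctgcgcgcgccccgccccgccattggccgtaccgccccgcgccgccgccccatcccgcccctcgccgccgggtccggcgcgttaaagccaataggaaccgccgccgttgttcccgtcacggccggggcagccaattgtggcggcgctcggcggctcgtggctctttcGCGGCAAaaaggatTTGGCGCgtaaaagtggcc
E2F3: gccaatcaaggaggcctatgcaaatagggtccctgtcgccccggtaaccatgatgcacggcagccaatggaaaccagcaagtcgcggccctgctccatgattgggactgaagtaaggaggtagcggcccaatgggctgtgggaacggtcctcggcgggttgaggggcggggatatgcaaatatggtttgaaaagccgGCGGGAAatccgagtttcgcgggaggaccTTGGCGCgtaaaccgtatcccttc
E2F7: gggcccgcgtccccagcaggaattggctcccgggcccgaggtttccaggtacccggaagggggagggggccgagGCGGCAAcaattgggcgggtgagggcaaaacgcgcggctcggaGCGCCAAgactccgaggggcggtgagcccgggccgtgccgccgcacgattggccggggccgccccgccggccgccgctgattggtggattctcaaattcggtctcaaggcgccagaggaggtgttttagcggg
E2F2: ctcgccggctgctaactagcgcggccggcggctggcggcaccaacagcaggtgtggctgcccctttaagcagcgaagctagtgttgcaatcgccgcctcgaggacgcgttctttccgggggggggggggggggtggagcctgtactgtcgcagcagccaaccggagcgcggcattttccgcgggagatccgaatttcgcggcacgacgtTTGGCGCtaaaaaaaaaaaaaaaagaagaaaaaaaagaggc
E2F4: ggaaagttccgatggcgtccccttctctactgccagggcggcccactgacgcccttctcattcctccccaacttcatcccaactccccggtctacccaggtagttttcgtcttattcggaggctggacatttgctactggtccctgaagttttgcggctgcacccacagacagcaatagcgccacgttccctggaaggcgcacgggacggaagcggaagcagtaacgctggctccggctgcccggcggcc

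E2F1, E2F3 and E2F7 each held 2 E2F motif matches in these 250 bases, whereas 13.6% of 22199 RefSeq promoters held at least 1 and 1.77% held 2 or more. E2F2 held 1, and E2F4 and E2F6 held none. The matches began 33 and 19 bases before the start at E2F1, 53 and 24 at E2F3, 176 and 133 at E2F7 and 41 at E2F2. The CCAAT box occurred 3 times at E2F1, 4 times at E2F3 and 4 times at E2F7, and was not found at E2F2, E2F4 or E2F6. It was present in 32.7% of promoters. The cell-cycle homology region was matched once, at E2F3, 65 bases before the start, against 11.0% of promoters. GC boxes numbered 5 at E2F1, 3 at E2F7, 1 each at E2F3, E2F4 and E2F6 and 0 at E2F2, against at least 1 in 53.7% of promoters. No E2F motif match overlapped a match of another kind, while at E2F7 1 CCAAT box overlapped a GC box. A match is a description of the sequence, not a measured binding site.

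The summits lay close to these matches at the strongly enriched members. In GSK126 cells the centre of the nearest E2F motif was 0 bp from the summit at E2F7, 7 bp at E2F1, 13 bp at E2F3, 26 bp at E2F8 and 52 bp at E2F2. At E2F4 it was 194 bp away, and at E2F6 no match lay within 250 bp. A match within 100 bp of the summit was found at 4 of 4 members in untreated cells (56.1% of genes with a promoter peak), 6 of 7 in DMSO cells (37.4%) and 5 of 7 in GSK126 cells (32.3%). The DMSO count included E2F4, whose summit there was 213 bp from the GSK126 summit and 19 bp from a match. At the other members the 2 summits lay 4 to 33 bp apart.

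**Figure D3:**
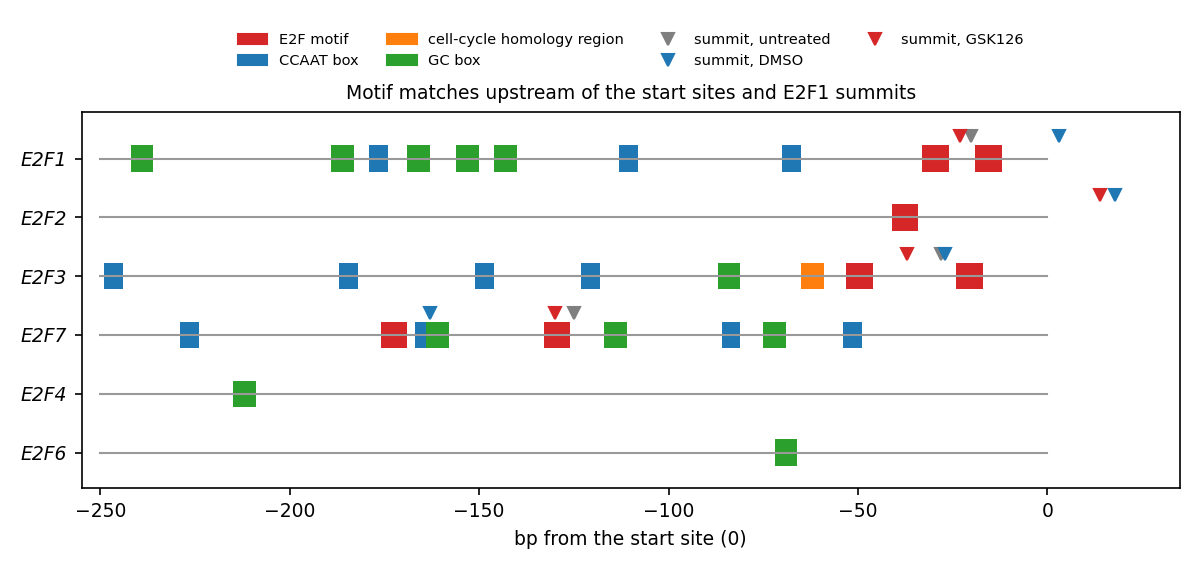
Matches to the E2F motif, CCAAT box, cell-cycle homology region and GC box in the 250 bases before the start site of 6 E2F genes (horizontal axis, bp from the start), with triangles at the E2F1 summits that fall within the plotted range. The summits at E2F1, E2F3 and E2F7 stand next to E2F motif matches. The summits at E2F4 and E2F6 lie farther into the gene and are not drawn.

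E2F1 enrichment was higher in GSK126 than in DMSO cells at each of the 7 members with both values, by about as much as at other promoters. Of the 6539 genes with both values, 6354 were likewise higher in GSK126 cells. The study, with its own thresholds and at cotarget genes of EZH2 and E2F1, describes the change of E2F1 binding under GSK126 as negligible. The log2 ratio of fold enrichment was 0.20 at E2F4, 0.63 at E2F1, 0.74 at E2F3, 0.84 at E2F2, 0.93 at E2F7, 1.01 at E2F8 and 1.06 at E2F6. The members' median of 0.84 compared with 0.73 over all 6539 genes with a promoter peak in both lists, whose quartiles were 0.50 and 0.93. A log2 ratio of at least 1 was reached by 2 of 7 members, beside 18.4% of genes. From the fragments, scaled to the lowest background of each list, E2F8 was 1.95 times higher in GSK126 cells (counting interval 1.62 to 2.34), E2F1 1.67 times (1.37 to 2.02) and E2F3 1.69 times (1.42 to 2.02). The interval lay above 1 at 6 of 7 members, beside 61.4% of the 6539 genes, and included 1 at E2F4, at 0.680 to 2.45. Such intervals narrow as fragments rise, and E2F4 had the fewest of the members, 20 in DMSO and 24 in GSK126 cells. The part of fragment number in these shares was not tested. With 1 library per condition, a difference between the treatments and a difference in immunoprecipitation between the libraries cannot be told apart.

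**Figure D4:**
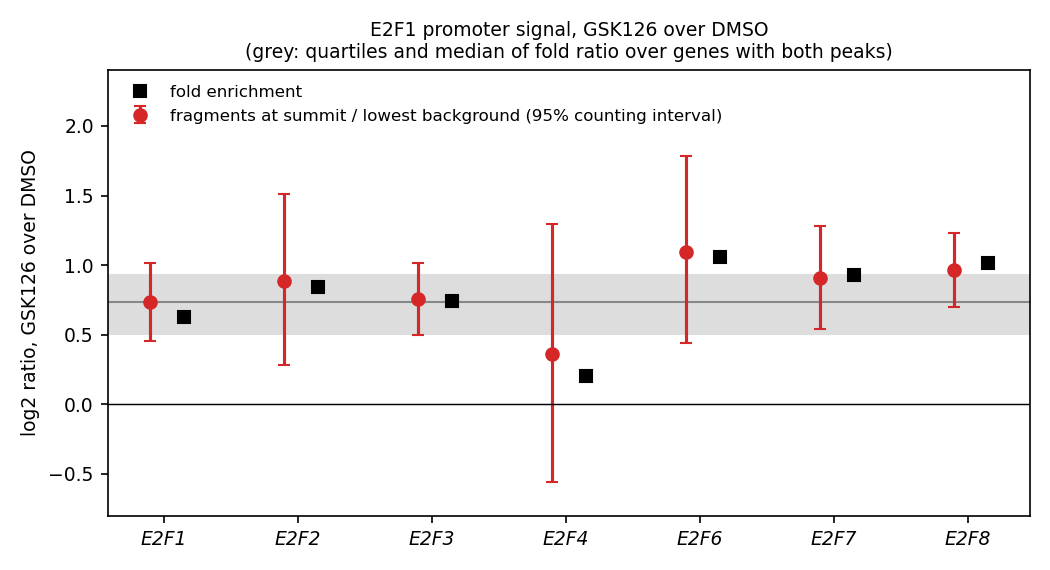
Log2 ratio of E2F1 signal in GSK126 over DMSO cells at the strongest promoter peak of 7 E2F genes, from fragments scaled to the lowest background (red, with 95% counting intervals) and from fold enrichment (black). The grey band and line give the quartiles and median of the fold ratio over 6539 genes. Fold ratios run from 0.20 at E2F4 to 1.06 at E2F6, around the median of 0.73.

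The DMSO library was also set against the untreated one, so both ratios share its values. The log2 ratio of fold, DMSO over untreated, was 0.38 at E2F3, 0.63 at E2F1, 0.80 at E2F7 and 1.38 at E2F8, with a median of 0.71 (n = 4) beside 0.50 over 1140 genes. By fold, E2F8 alone reached a log2 ratio of 1, 1 of 4 members, beside 24.2% of genes. From the fragments, scaled to the lowest background of each list, the log2 ratio was 0.10 at E2F3, 0.77 at E2F1, 0.65 at E2F7 and 0.99 at E2F8. Its median was 0.71 over the members, beside 0.32 over the 1140 genes. The counting interval lay above 1 at 2 of 4 members, E2F8 (1.37 to 2.96) and E2F1 (1.19 to 2.48), beside 19.7% of genes, and included 1 at E2F7 (0.985 to 2.58) and E2F3 (0.816 to 1.43). The part of fragment number in these shares was not tested either.

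Before the H3K27me3 counts, the 2 lists were checked at 6 other genes, and these did not give the usual pattern of the mark. ACTB and GAPDH, active in nearly all cells, had promoter peaks in shE2F1 cells in 2 of 2 cases and in control cells in 1 of 2. Of HOXA9, HOXB9, HOXC9 and HOXD9, common Polycomb targets, 0 of 4 had one in shE2F1 and 1 of 4 in control cells. How far the called peaks of these lists stand for H3K27me3 is therefore in doubt, which applies to each count of members below, and its part in them was not tested.

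No member had an H3K27me3 promoter peak in control shRNA cells, where 27.1% of protein-coding genes had one. In shE2F1 cells 6 of 8 members had one, E2F1, E2F3, E2F4, E2F6, E2F7 and E2F8, beside 51.2% of genes. A peak in shE2F1 and none in control cells was thus seen at 6 of 8 members, beside 26% of genes (5201 of 19970). Among genes with an E2F1 promoter peak in both DMSO and GSK126 cells it was seen at 6 of 7 members, beside 43.5% of 6539 genes. E2F2 was the E2F1-bound member without it.

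These peaks were narrow and near the calling limit. They numbered 7 in the 6 genes and were 250 to 784 bp wide, with a median of 342 bp beside 670 bp over all genes with a promoter peak in shE2F1 cells. The strongest was at E2F6, where the fold reached 3.56 at a −log10 q of 3.97, and the next by q was at E2F1, where the fold reached 2.91 at 2.96. At E2F4 the fold was 3.11, at E2F8 2.88, at E2F3 2.84 and at E2F7 2.68, with −log10 q of 1.87, 1.89, 1.94 and 1.31. With a −log10 q of at least 2 the count of 6 members fell to 2, E2F1 and E2F6, and the share of all genes to 28.9%. With a −log10 q of at least 5 it fell to 0, and the share to 9.19%. The members' median fold of 2.89 compared with 3.22 over all genes with a promoter peak in that list.

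The H3K27me3 peaks of shE2F1 cells were set against the E2F1 peaks of the other libraries. In GSK126 cells, whose promoter peaks were the widest by their median over genes, the strongest H3K27me3 peak overlapped the strongest E2F1 peak at 6 of 6 members, beside 91.6% of the 2847 genes with both peaks and no control H3K27me3 peak. It lay wholly inside at 5 of 6, beside 67.3%, and over 98.4% of its length at E2F4. In DMSO cells it overlapped at 6 of 6, beside 88.4%, and lay wholly inside at 5 of 6, beside 33.9%, with 77.7% of its length covered at E2F4. At those 5 members the DMSO E2F1 peaks were 1134 to 1932 bp wide, beside a median of 591 bp over genes with one. The part of peak width in these shares was not tested. The narrower untreated E2F1 peaks covered all of the strongest H3K27me3 peak at E2F3 and E2F7, 79.8% at E2F8 and 48.2% at E2F1, and were absent at E2F4 and E2F6. At E2F3 a second H3K27me3 peak, 454 bp wide with a fold of 2.69, was centred 23 bp upstream of the internal start, in intron 1 of the longer transcript, 1777 bp from the main TSS. The E2F1 peak covered all of it in GSK126 cells and 31.1% in DMSO cells, and ended 1161 bp short of it in untreated cells. At E2F8 the peak was centred 726 bp upstream of the main TSS, at the upstream starts where the smaller untreated E2F1 peak lay, not at the strongest E2F1 summit. At the NECAB3 start beyond E2F1 the shE2F1 list also held a peak, with a fold of 3.45, that shared its position with the E2F1 peaks there.

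**Figure D5:**
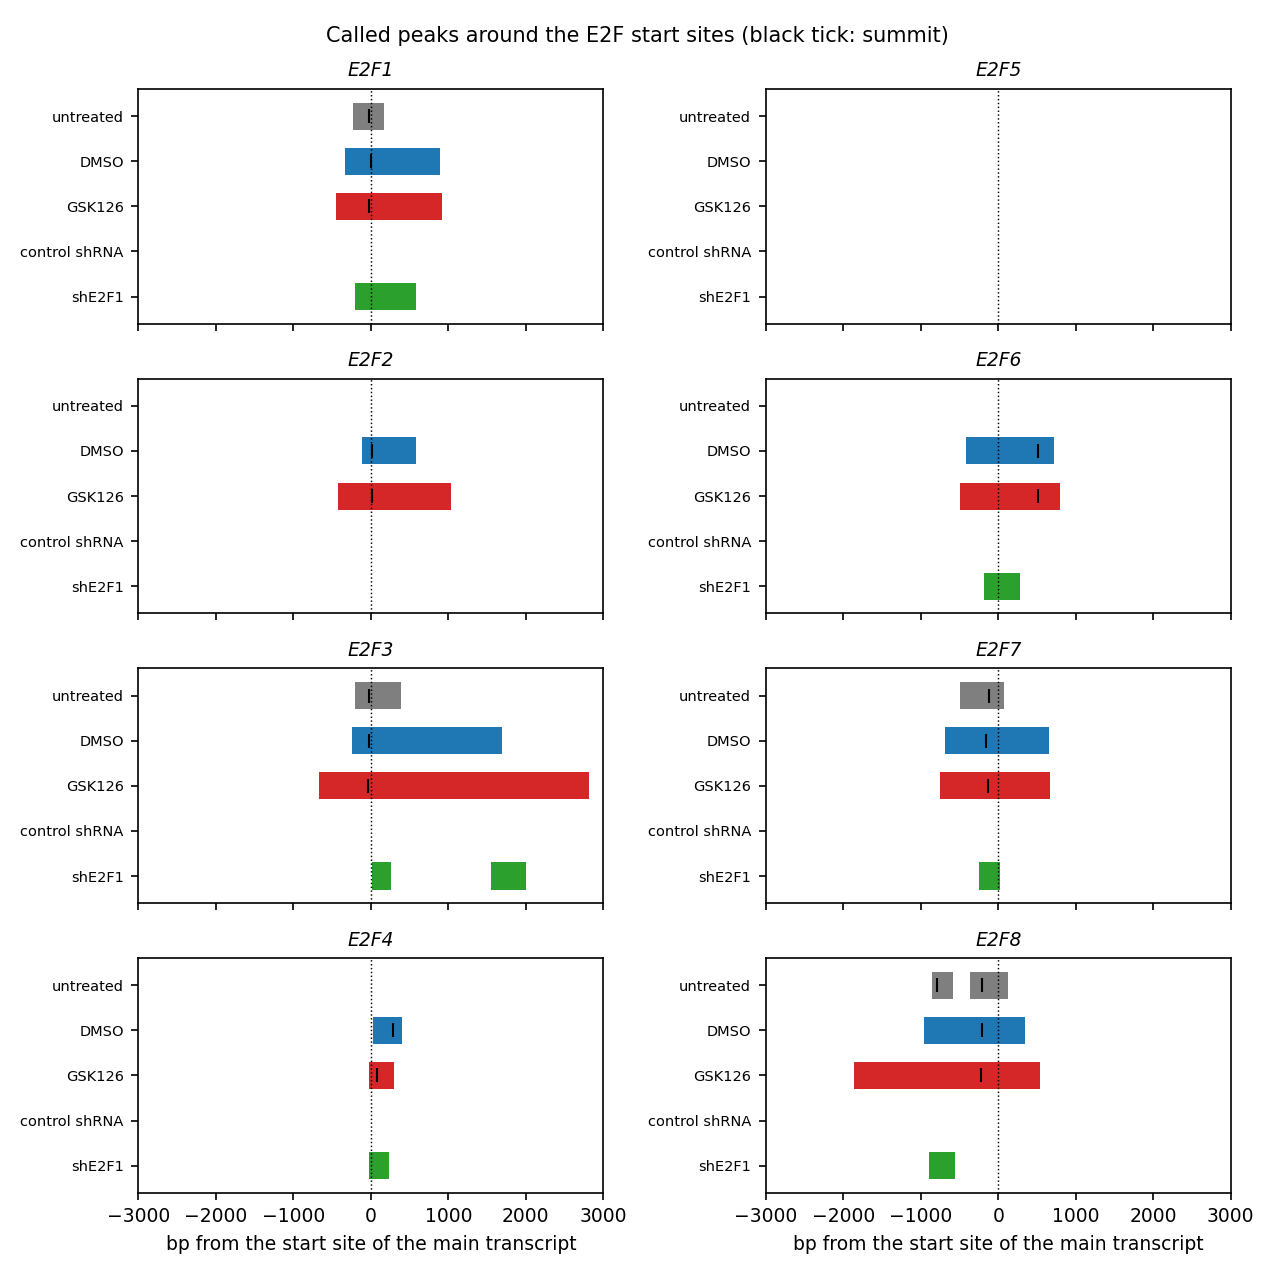
Called peaks of the 5 lists within 3000 bp of the start site of the main transcript of each E2F gene (horizontal axis, bp, in the direction of transcription), with black ticks at E2F1 summits. The E2F1 peaks of untreated, DMSO and GSK126 cells overlap at E2F1, E2F3, E2F7 and E2F8, the control shRNA rows are empty, and the shE2F1 H3K27me3 peaks lie within the GSK126 peaks, at E2F4 over 98.4% of the length.

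The control H3K27me3 library did hold peaks near several members. Within 50 kb of the TSS, control H3K27me3 peaks covered 15.5% of the sequence at E2F3, 15.1% at E2F6 and 13.2% at E2F8, beside a median of 1.14% over all genes. They covered 1.48% at E2F2, 0.824% at E2F5, 0.181% at E2F4 and 0 at E2F1 and E2F7. In shE2F1 cells the values were 13.5% at E2F3, 16.6% at E2F6 and 12.2% at E2F8, beside a median of 2.26%. At E2F3 the nearest control peak ended 4080 bp upstream of the TSS and at E2F6 6648 bp upstream. At E2F7 it lay 2388953 bp away.

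Peaks over the gene bodies were promoter peaks that reached into the gene. The 8 members span 257993 bp in all. E2F1 peaks over them numbered 5 in untreated, 7 in DMSO and 7 in GSK126 cells and covered 0.477%, 2.31% and 3.01% of their length, beside 0.0196%, 0.361% and 0.597% over all protein-coding genes. H3K27me3 peaks numbered 0 in control and 7 in shE2F1 cells, covering 0.760% in the latter, beside 4.49% and 5.73% over all genes. No peak over a member's gene body in any list lay outside its promoter windows. The covered shares of the members therefore depend on gene length, whose part in the comparison with all genes was not tested.

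E2F5, chr8:85177154-85217158 on the plus strand, stood apart from the rest of the family. It had no promoter or gene body peak in any of the 5 lists, as did 26.1% of protein-coding genes for promoters. Its nearest E2F1 peak began 68364 bp downstream in DMSO and 68317 bp downstream in GSK126 cells, near the start of CA13, a carbonic anhydrase gene, and its nearest untreated peak was 4807241 bp away, near NBN. Its nearest H3K27me3 peak lay 7105 bp upstream in control and 7010 bp upstream in shE2F1 cells. The divergent transcript E2F5-DT starts 92 bp upstream of E2F5, so it shares this promoter. The study names E2F5 among the cell cycle genes whose transcription was affected by the shRNAs against EZH2 and E2F1. It also reports EZH2 and E2F1 at the promoters of the commonly downregulated genes, as an average profile. The lists used here held no E2F1 peak at the E2F5 promoter.

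The wider RB-E2F pathway, a list of 22 genes, was occupied to a similar degree. E2F1 promoter peaks were found at 10 of 22 genes in untreated, 18 of 22 in DMSO and 19 of 22 in GSK126 cells. The shares of all protein-coding genes were 5.85%, 33.5% and 51.5%, in the same order. Median folds over the list were 9.96, 15.5 and 26.3. The strongest in untreated cells were LIN52, a subunit of the MuvB core, at 24.0, CDC25A, a phosphatase that activates cyclin-dependent kinases, at 17.6, and RBL1, which encodes p107, at 17.6. E2F3 had a fold of 24.1 in that list and E2F1, E2F7 and E2F8 lay below these 3 genes. LIN37, CCND2 and CDK6 had no E2F1 promoter peak in any list. From DMSO to GSK126 cells the log2 ratio of fold had a median of 0.85 over the 18 genes with both values. A ratio of 1 was reached by 3 of 18, beside 18.4% of all genes with both values.

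H3K27me3 promoter peaks were found at 4 of 22 pathway genes in control cells, beside 27.1% of all protein-coding genes. In shE2F1 cells they were found at 14 of 22, beside 51.2%. A peak in shE2F1 and none in control cells was found at 10 of 22, beside 26% of genes. Among genes with an E2F1 promoter peak in both DMSO and GSK126 cells it was 10 of 18, beside 43.5%. Among these 10 were the pocket protein gene RB1, the DP gene TFDP2 and the MuvB genes LIN9, LIN52, LIN54 and RBBP4. The rest were the cyclin genes CCND3, CCNE1 and CCNA2 and the ubiquitin ligase gene SKP2. All 10 had an E2F1 promoter peak in DMSO and GSK126 cells, as did 18 of the 22 pathway genes and 54.7% of the 5201 genes with the mark called in shE2F1 cells only. The median fold of the 14 peaks in shE2F1 cells was 3.77, against 2.89 at the members.

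The genes whose E2F1 promoter folds most resembled those of a member over the 3 lists were found by the distance between log2 folds, among 1140 genes with all 3 values. Nearest to E2F3 were HELLS, a chromatin remodeller, at a distance of 0.0687 with folds of 24.7, 30.3 and 51.1, and DEK at 0.181. Nearest to E2F1 were CDCA7L at 0.105 and CDC23, a subunit of the anaphase-promoting complex, at 0.121. Nearest to E2F7 were DONSON, a replication factor, at 0.0912 and the histone variant gene H2AZ2 at 0.195. Nearest to E2F8 were SLBP, which binds histone mRNA, and TACC3, a spindle protein gene, both at 0.179, since the same peak gave both values.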

How the data were processed

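Chromatin was sonicated for E2F1 and cut with micrococcal nuclease for H3K27me3. Per the submitters' processing notes and the study's methods, the authors checked reads with FastQC 0.11.5, trimmed them with cutadapt 4.5, aligned them to GRCh38 with Bowtie2 2.5.2, filtered them with Picard and SAMtools, and used MACS2 2.2.9.1 to call peaks library by library, as narrow peaks for E2F1 and broad peaks for H3K27me3. The deposited lists give for each peak its fold enrichment (a ratio of pileup to local background, as defined above), the −log10 of its p-value and of its q-value, a score equal to 10 times the −log10 q, and, for E2F1, the offset of the summit. The lowest −log10 q in a list was 2.01 to 2.08 for E2F1 and 1.01 for H3K27me3. Whether the input entered the peak calling is not given in the sources used here.

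From these files, peaks were assigned to genes of GENCODE 44 (GRCh38), with 0 peaks beyond chromosome ends. Fragments at each summit and the local background were solved from fold and p-value under the Poisson model of the caller, for every E2F1 peak within a relative error of 2e-05. The step was tested on simulated data. For broad peaks, which hold averages, fragments were not solved and depth is unknown. The strongest peak of a gene in each list was used. Ratios of fragments have exact binomial intervals at 95%. Peaks within 50 kb of a TSS were measured for genes with a full window. Motifs were read from the genome and from RefSeq promoter sequences. Tools were Python 3.11.15, numpy 2.4.6, pandas 2.3.3, scipy 1.17.1 and matplotlib 3.10.9.

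The members, the pathway list and the motifs were chosen with earlier results of these data known. All 8 members were named. Of the pathway list, the 3 genes with the highest untreated fold were named, as were genes without any E2F1 promoter peak and genes with an H3K27me3 promoter peak in shE2F1 cells only. The 2 genes nearest in fold were named for each member with peaks in all 3 E2F1 lists. Alternatives to the window, start sites, peak threshold, overlap rule, fold measure and motif were tried.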

Additional observations from a re-analysis of the deposited data

How the results depend on the processing

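No paired analysis was possible because each condition had 1 library and no test was run. For the same reason no library could be left out. Of the counts and medians that answer a comparison, 49 values under an alternative stayed within the limits set for a change and 7 moved. The members with an H3K27me3 promoter peak in shE2F1 cells, 6 at the authors' threshold, numbered 2 with a −log10 q of at least 2 and 0 with at least 5, and those with such a peak in shE2F1 and none in control cells numbered 2 and 0 likewise. Peaks over the gene bodies with the summit inside the gene numbered 1 in untreated and 4 in GSK126 cells, against 5 and 7 by overlap, and H3K27me3 peaks there in shE2F1 cells numbered 0 with a −log10 q of at least 5. In a window of 1000 bp upstream to 100 bp downstream the members with an E2F1 promoter peak numbered 6 in DMSO and 6 in GSK126 cells, since the E2F6 summits lie 237 and 233 bp downstream of the nearest start. These changes from 7 were counted as within the limits. So were 5 gene-body peaks against 7 in DMSO cells with the summit inside, and in shE2F1 cells with the midpoint inside. Members with the E2F motif near the GSK126 summit numbered 4 within 50 bp and 6 within 250 bp, against 5, also within them. No direction was reversed under these alternatives. The untreated E2F1 list had the fewest peaks and the lowest background. By the lowest background, DMSO depth was 2.72 times higher, for 15703 against 1056 peaks. The part of depth in that difference was not tested.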
